A study of Mus musculus with 16 samples.

Results

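The 10 genes *Bcl6*, *Pax5*, *Ebf1*, *Spib*, *Pou2af1*, *Mef2b*, *Mef2c*, *Irf8*, *Foxo1* and *Bach2*, which encode transcriptional regulators of germinal center (GC) B cells, were taken by symbol from a count matrix of 56691 gene entries, in which each symbol had 1 row. The cells were single light zone (LZ) GC B cells sorted from lymph nodes and sequenced by SMART-seq2, which reads full-length transcripts and adds no molecular identifiers. B1-8hi BTKC481S and B1-8hi BTKWT B cells, both carrying a knock-in heavy chain that gives high affinity for the hapten NP, were transferred together into male hosts primed with ovalbumin and boosted with NP-ovalbumin. BTK is a kinase downstream of the B cell receptor (BCR), and the C481S change makes it insensitive to acalabrutinib. The labels hold 16 samples, 1 for each genotype in each of 8 hosts, and 5 hosts received acalabrutinib (named A7, A8, A10, A11, A12) and 3 received vehicle (named V5, V7, V9). The 637 cells of the matrix are named by host, plate and well and carry no genotype, so both genotypes of a host were pooled, the host was the replicate, and BTKC481S against BTKWT was not analysed here. All cells came from the transferred B1-8hi lines, and the hosts came from 2 independent experiments that the sources used here do not assign to hosts.

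GC B cells cycle between a dark zone, where they divide and mutate their receptors, and an LZ, where they take up antigen and meet T cells. BCL6 is the repressor that GC formation requires, PAX5 and EBF1 set and hold B cell identity, and BACH2 holds back *Prdm1* and with it plasma cell differentiation. IRF4, induced by strong BCR and CD40 signals, opposes the GC program at high levels, so levels of the 10 regulators were compared between cells with and without *Irf4* counts, between cycling and G1 cells, and between treatments.

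Total counts lay between 132412 and 1825420 per cell, with a median of 789357, and a host gave 45 to 130 cells and 26778559 to 114987280 counts. No cell name occurred more than once. B cell identity was checked with 8 marker genes, among them *Cd79a* (a count in 99.5% of cells), and *Ms4a1* was listed at 0 in all 637 cells. The other 7 had a count in 86.2% of cells or more, and whether *Ms4a1* was counted in this matrix was not tested. The GC gene *S1pr2* had a count in 77.9% of cells. Of the T cell receptor complex genes, *Cd3e*, *Cd3d* and *Cd3g* had a count in 1, 7 and 5 cells, and 6 of the 8 T cell markers were in under 3% of cells, while *Lck* and *Cd2* were in 51.65% and 22.0%. Of 8 macrophage and monocyte markers, 6 were in under 3% of cells (*Itgam* in 0, *Lyz2* in 3 cells), while *Adgre1* and *Cd68* were in 38.15% and 9.11%. Of 8 dendritic cell markers, 4 were in under 3%, and *Flt3* and *Ly6d* were in 29.8% and 24.2%. The part of other cell types in the results was not tested. Binomial intervals given below cover counting error only.

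Promoter windows were examined for short motifs, since several of these genes regulate each other. Apart from the E2F motif, these are letters that members of the set, or their partners, are known to bind. No motif of PAX5, MEF2B, MEF2C or BACH2 was searched. RefSeq windows of 250 bases before to 50 after a start site were available for all 10 genes on GRCm38.p6 (15 windows, as *Bcl6*, *Ebf1* and *Irf8* have 2 and *Mef2c* 3), a build other than the GRCm39 of the counts. Both strands were searched for 7 motifs. Of these, 3 occurred, in 1 window each, and the 250 bases before the start site of those windows are given 5′ to 3′, with the match in capitals.
*Mef2b*, chr8:70152511-70152760, plus strand: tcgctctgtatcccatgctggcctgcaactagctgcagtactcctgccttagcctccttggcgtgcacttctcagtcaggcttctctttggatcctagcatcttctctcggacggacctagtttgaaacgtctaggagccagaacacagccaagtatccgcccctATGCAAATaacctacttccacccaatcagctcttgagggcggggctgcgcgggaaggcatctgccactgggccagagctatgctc
*Foxo1*, chr3:52268087-52268336, plus strand: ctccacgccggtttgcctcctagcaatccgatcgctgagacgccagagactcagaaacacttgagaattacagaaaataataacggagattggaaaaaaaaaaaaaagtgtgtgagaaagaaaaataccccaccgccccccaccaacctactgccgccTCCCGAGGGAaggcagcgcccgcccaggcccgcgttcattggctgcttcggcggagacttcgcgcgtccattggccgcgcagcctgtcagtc
*Ebf1*, chr11:44617850-44618099, plus strand: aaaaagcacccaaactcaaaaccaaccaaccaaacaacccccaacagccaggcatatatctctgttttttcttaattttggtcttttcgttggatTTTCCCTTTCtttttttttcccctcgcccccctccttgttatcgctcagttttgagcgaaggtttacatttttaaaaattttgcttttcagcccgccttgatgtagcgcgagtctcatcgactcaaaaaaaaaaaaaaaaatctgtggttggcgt
The *Mef2b* window held the octamer ATGCAAAT, which OCT factors bind together with the POU2AF1 coactivator, at -85 from the start site. The *Foxo1* window held the EBF motif, TCCC and GGGA with any 2 bases between them, at -92. The other strand of the upstream *Ebf1* window held the interferon regulatory factor (IRF) motif, a pair of GAAA runs with any 2 bases between them, at -155. Among all 32851 mouse windows of the same length, 1.74% held the octamer, 0.904% the EBF motif and 3.44% the IRF motif. The forkhead motif GTAAACA (3.65% of all windows), the E2F motif TTTCCCGC (1.07%), the PU-box GAGGAAGT (3.20%) and the BCL6 motif TTCCTAGAA (0.411%) occurred in none of the 15 windows. A match describes the letters and is not evidence of binding.

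All 10 regulators were abundant in LZ cells. Each host's cells were pooled by adding their counts, which were scaled to CPM, a gene's counts relative to a fixed library total, and a level is given as mean ± SD over the 8 hosts. *Bach2* was at 3256 ± 758 CPM and *Ebf1* at 2478 ± 351 CPM. *Pax5*, *Pou2af1* and *Irf8* followed at 972 ± 175, 838 ± 65.6 and 812 ± 73.2 CPM. *Mef2c* (692 ± 108), *Spib* (671 ± 50.7), *Mef2b* (669.6 ± 50.1) and *Foxo1* (634.5 ± 134) lay close together, and *Bcl6* had 381 ± 66.7 CPM. Of all gene entries, 1 had a higher mean than *Bach2*, 3 a higher mean than *Ebf1* and 414 a higher mean than *Bcl6*.

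The authors counted reads over introns as well as exons, so long genes collect more counts. Per kilobase of exon in GENCODE M21 the order changed: *Mef2b* led with 477 CPM per kilobase, ahead of *Pou2af1* (329), *Bach2* (327.5), *Ebf1* (254), *Spib* (234), *Irf8* (115), *Pax5* (109.8), *Foxo1* (73.2), *Bcl6* (56.9) and *Mef2c* (44.0). Of the 9 neighbouring pairs in this order, *Pou2af1* and *Bach2*, and *Ebf1* and *Spib*, were in the stated order in 5 of 8 hosts, and *Irf8* and *Pax5* in 6 of 8. The other 6 pairs kept the stated order in 7 or 8 hosts. Per kilobase of the whole gene, 9 of 10 ranks moved. *Spib*, with a span of 6.08 kb, then led with 110.4 CPM per kilobase, and *Bach2* (347 kb) and *Ebf1* (391 kb) came to 9.37 and 6.34. *Mef2c* was last on both scales. Levels of different genes are therefore not ranked further.

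The spread between hosts differed among the genes (the plot of levels and shares by host). *Mef2b*, *Spib*, *Pou2af1* and *Irf8* varied least, with an SD of 7.48%, 7.56%, 7.82% and 9.01% of the mean. *Bach2* and *Foxo1* varied most, at 23.3% and 21.1%. *Bach2* ranged from 2266 CPM in host A11 to 4649 CPM in host A8, with a median of 2989. *Foxo1* ranged from 485 CPM in host V5 to 916 CPM in host A8, with a median of 605.5. *Pax5* and *Ebf1* were also highest in host A8 (1324 and 2955 CPM) and lowest in host A11 (720.1 and 1986 CPM). *Bcl6* ran from 293 CPM in host V9 to 508 CPM in host A7. Host A8 had the lowest share of cycling cells, 42.7%, against 48.9% to 69.2% in the other hosts, and the part of this difference in its levels was not tested.

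**Figure D1:**
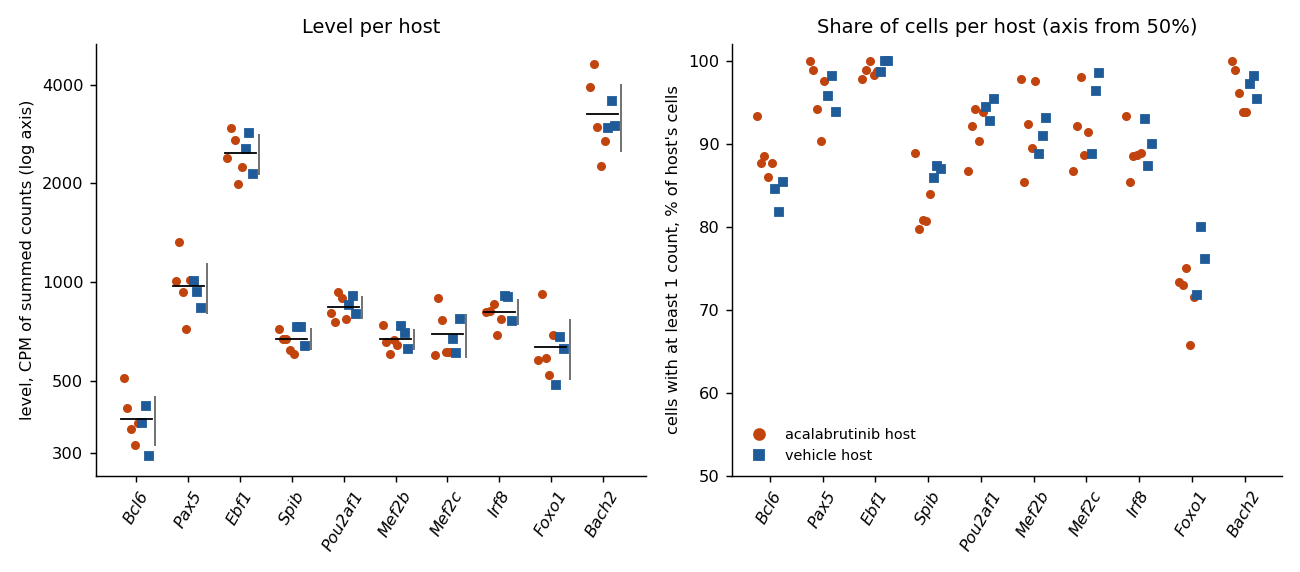
Left, level of each gene in CPM of summed counts (log axis), 1 point per host, with the mean as a black line and ± 1 SD as a grey bar. Right, percent of a host's cells with at least 1 count (axis from 50%). *Bach2* (2266 to 4649 CPM) and *Ebf1* (1986 to 2955 CPM) lie above the other 8 genes in every host, and the levels of acalabrutinib and vehicle hosts overlap for each gene. In the right panel, which is not adjusted for depth, the *Bcl6* shares of the 5 acalabrutinib hosts (85.96% to 93.3%) lie above those of the 3 vehicle hosts (81.8% to 85.4%). With cells thinned to the same number of counts these groups overlapped (means 88.0% and 86.1%, exact permutation p = 0.536). Thinning left 49 of 71 cells in host V5, whose *Bcl6* share rose from 84.5% to 89.8%, and 113 of 114 cells in host A11. The share of all genes without overlap between treatments is not given here.

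Detection was near complete for the B cell identity factors. *Ebf1* had a count in 631 of 637 cells (99.1%, 95% exact binomial interval 98.0% to 99.65%), *Bach2* in 613 (96.2%), *Pax5* in 608 (95.4%), *Pou2af1* and *Mef2c* in 591 each (92.8%) and *Mef2b* in 583 (91.5%). *Irf8* had a count in 89.2% of cells, *Bcl6* in 551 (86.5%, 83.6% to 89.1%) and *Spib* in 535 (84.0%). *Foxo1*, the forkhead factor restrained by PI3K and AKT and required for the dark zone program, had a count in 464 cells (72.8%, 69.2% to 76.3%). Its interval lies below those of the other 9 genes, although its level was above that of *Bcl6*. Among cells with a count, the median was 576 counts for *Foxo1* and 243 for *Bcl6*. With every cell thinned to 459128 counts, which left out 64 shallower cells, the shares of *Foxo1* and *Bcl6* were 73.8% and 86.6%. All 10 genes had a count in 268 cells (42.1%), 9 in 209 (32.8%) and 8 in 99 (15.5%). At most 4 of the 10 were found in 4 cells.

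Cycling cells were compared with G1 cells within each host. Seurat called 248 cells G1, 241 S and 148 G2/M from 43 S and 54 G2/M genes, none of them a member, and 71 cells had a phase score within 0.05 of 0. *Ebf1*, *Pax5*, *Spib*, *Bach2*, *Irf8* and *Foxo1* were lower in cycling (S or G2/M) cells, and none of the 10 genes was called higher (the plot of fold changes). The test was edgeR's quasi-likelihood test with host as block and Benjamini-Hochberg adjustment over all 12686 genes tested. At adjusted p under 0.05, 6 of 10 members passed, all lower, against a background of 3.72% of all genes tested, of which 2.46% were called higher and 1.26% lower. Abundant genes passed more often: of the 647 genes whose mean reached 300 CPM, a floor that all 10 members exceed and that was set after their levels were seen, 25.8% were called and 17.0% were called lower. The median log2 fold change was -0.35 over the members, 0.14 over all genes tested and -0.12 over these 647 genes.

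*Ebf1*, which with PAX5 specifies the B lineage, had the largest difference among the members. In G1 cells it ranged over hosts from 2540 to 4069 CPM (median 2928), and in cycling cells from 1762 to 2346 CPM (median 2092). The ranges of the 8 hosts did not overlap, and *Ebf1* was lower in cycling cells in 8 of 8 hosts. The share of all genes with such a pattern is not given here. The log2 fold change was -0.63 ± 0.06 (SE; edgeR adjusted p = 0.000548). Within plates, it was lower in 13 of the 14 plates with at least 5 cells of each kind. Plates are parts of the same hosts and are not further replicates.

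*Pax5* lay between 728 and 1681 CPM in G1 cells (median 1170.0) and between 717 and 965 CPM in cycling cells (median 828). The groups overlapped, *Pax5* was lower in 7 of 8 hosts and 12 of 14 plates, and the log2 fold change was -0.51 ± 0.12 (edgeR adjusted p = 0.0498). *Spib*, an ETS factor related to PU.1, lay between 619.5 and 978 CPM in G1 cells (median 807) and between 477.5 and 687 CPM in cycling cells (median 577). It was lower in 7 of 8 hosts, with a log2 fold change of -0.51 ± 0.11 (edgeR adjusted p = 0.0377).

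*Bach2* lay between 2429 and 5378 CPM in G1 cells (median 3632) and between 2201 and 3863 CPM in cycling cells (median 2792). Although the ranges overlapped between hosts, *Bach2* was lower in cycling cells within each of 8 hosts and in 13 of 14 plates (log2 fold change -0.39 ± 0.06, edgeR adjusted p = 0.00696). *Irf8*, which controls GC B cell genes together with partner factors, lay between 783.5 and 1119 CPM in G1 cells (median 928.5) and between 649.9 and 883 CPM in cycling cells (median 729). It was lower in 7 of 8 hosts and 13 of 14 plates, with a log2 fold change of -0.38 ± 0.09 (edgeR adjusted p = 0.0452). *Foxo1* lay between 511 and 1074 CPM in G1 cells (median 647) and between 474 and 746 CPM in cycling cells (median 587). The ranges overlapped, and *Foxo1* was lower in 8 of 8 hosts and 10 of 14 plates, with a log2 fold change of -0.33 ± 0.08 (edgeR adjusted p = 0.0412). In G2/M cells taken alone, *Foxo1* was higher than in G1 in 5 of 8 hosts.

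The remaining 4 genes were not called. *Bcl6* had a mean of 419 ± 71.0 CPM in G1 and 360.4 ± 71.0 CPM in cycling cells (log2 fold change -0.26 ± 0.09, edgeR adjusted p = 0.219). *Mef2c*, a MADS-box factor that acts downstream of the BCR, had 791 ± 201 and 640.0 ± 71.7 CPM (-0.31 ± 0.11, adjusted p = 0.202). *Mef2b*, which activates *Bcl6*, had 689 ± 90.3 and 646 ± 85.8 CPM (-0.13 ± 0.11, adjusted p = 0.716), and was higher in 5 of 8 hosts. *Pou2af1* went the other way, with 704 ± 104 CPM in G1 and 905 ± 108 CPM in cycling cells, higher in 7 of 8 hosts (0.33 ± 0.11, adjusted p = 0.181). At an unadjusted p under 0.05, 9 of 10 members passed, *Mef2b* being the exception, against 13.9% of all genes tested. DESeq2 called these 9 as well, 8 lower and *Pou2af1* higher, against 16.3% of all genes tested. For these 2 counts the rate among genes with at least 300 CPM is not given here, so the contrast holds against all genes only. The count of calls rested on borderline values: it was 2 without host A7, A8, A12, V5, V7 or V9, 3 without A11 and 5 without A10, and 2 (*Ebf1* and *Spib*) without the host block. *Ebf1* and *Bach2* were called whichever host was left out.

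**Figure D2:**
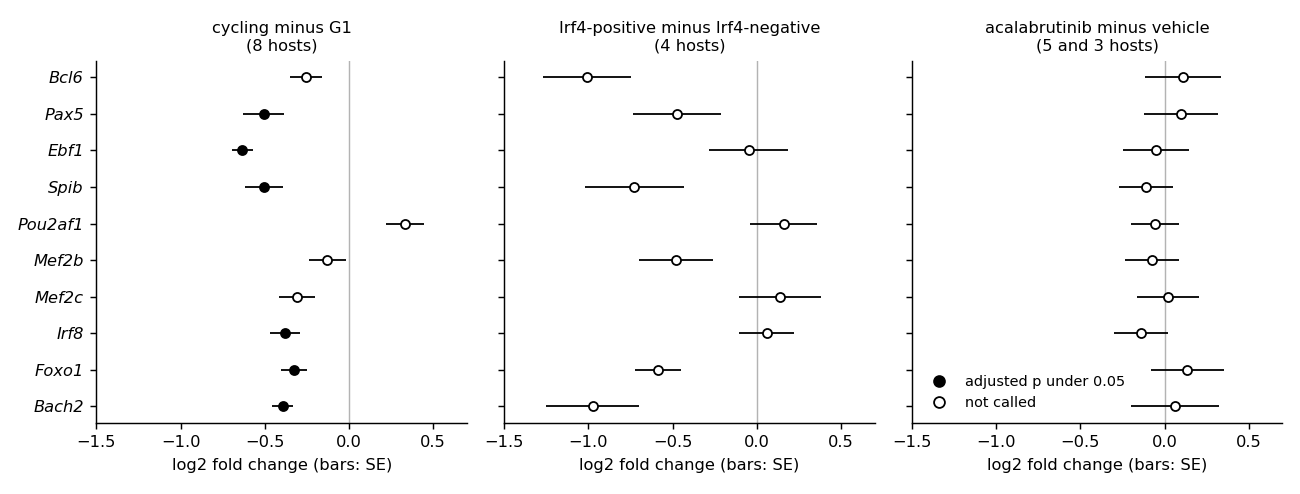
Log2 fold change of the 10 genes in 3 comparisons from edgeR, with bars of ± 1 SE and filled points for adjusted p under 0.05. In the left panel 6 genes are called lower in cycling cells, from -0.63 for *Ebf1* to -0.33 for *Foxo1*, and in the other 2 panels no gene is called.

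S and G2/M cells were also taken apart (the plot of levels by phase). *Foxo1* had 720.0 ± 181 CPM (SD, n = 8 hosts) in G1, 449.5 ± 69.5 CPM in S and 757 ± 164 CPM in G2/M. It was lower in S than in G1 and than in G2/M in 8 of 8 hosts, and higher in G2/M than in G1 in 5 of 8. Against G1, the log2 fold change was -0.69 ± 0.12 in S (edgeR adjusted p = 0.0115) and 0.07 ± 0.09 in G2/M (adjusted p = 0.841). In a direct comparison of S with G2/M, added after the levels by phase were seen, *Foxo1* was lower in S by -0.76 ± 0.13 (edgeR adjusted p = 0.0333), the only member called. Of 11031 genes tested in it, 0.653% were called, 0.163% higher and 0.490% lower in S. With 1 host left out, the log2 fold change stayed between -0.84 and -0.69, and the call was lost without host A7, A8, A11, A12, V7 or V9 (adjusted p between 0.0780 and 0.101).

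*Ebf1* had 3175 ± 565 CPM in G1, 2232 ± 295 CPM in S and 1818 ± 256 CPM in G2/M. It was lower in S than in G1, and lower in G2/M than in S, in 8 of 8 hosts. *Irf8* had 934 ± 121, 800.5 ± 109 and 642.5 ± 65.7 CPM, and was lower in G2/M than in S in 8 of 8 hosts. For both, the difference between S and G2/M was not called by edgeR (0.27 ± 0.10, adjusted p = 0.487, and 0.29 ± 0.09, adjusted p = 0.282) and was called by DESeq2 (adjusted p = 0.0269 and 0.0106). *Bach2* had 3776 ± 842, 2559 ± 439 and 3362 ± 1005 CPM, lower in S than in G1 in 8 of 8 hosts (log2 fold change -0.58 ± 0.09, edgeR adjusted p = 0.00913), and not called in G2/M against G1 (-0.20 ± 0.10, adjusted p = 0.476). Between S and G2/M, 5 of 10 members passed an unadjusted p under 0.05 against 7.81% of all genes, and DESeq2 called 3 against 7.69%. Neither rate is given here for genes with at least 300 CPM alone.

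**Figure D3:**
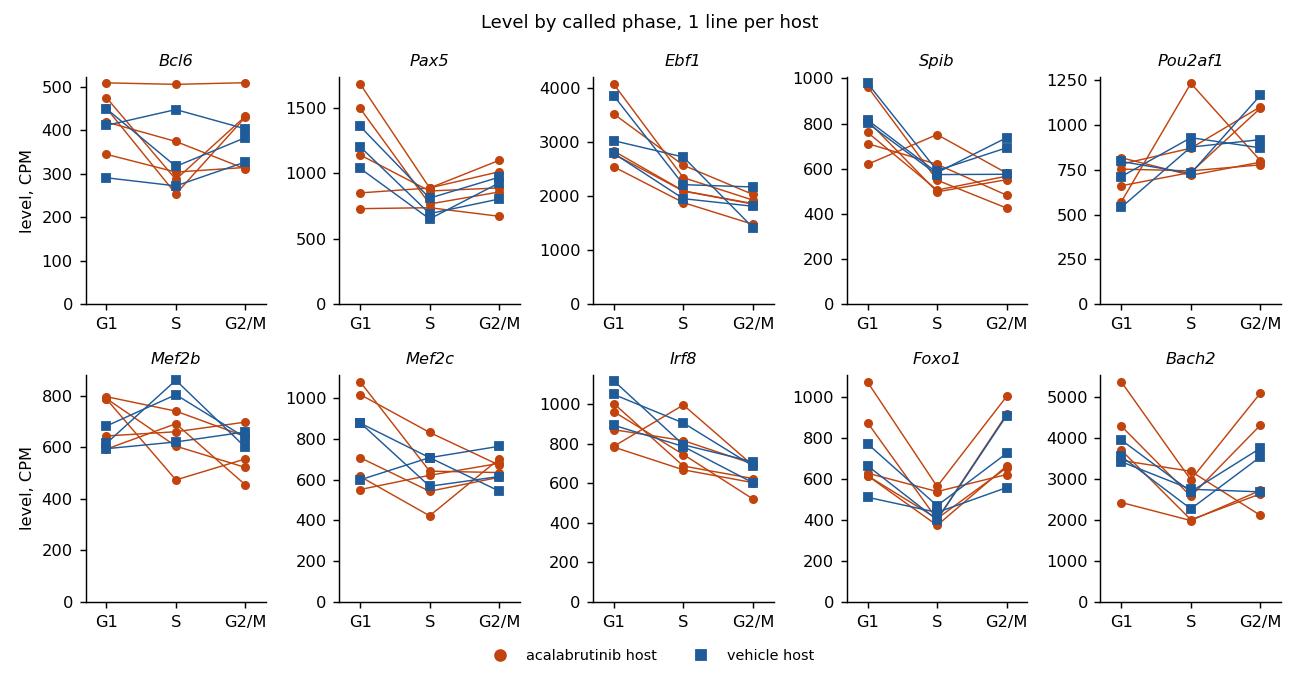
Level in CPM (axes from 0) in cells called G1, S and G2/M, 1 line per host. *Foxo1* is lowest in S in all 8 hosts (mean 449.5 CPM against 720.0 in G1 and 757 in G2/M), and *Ebf1* is lower in S than in G1 and lower in G2/M than in S in all 8.

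Shares of cells with a count were compared next. After thinning, *Pou2af1* had a count in 95.6% ± 1.83 of cycling cells and 90.1% ± 5.03 of G1 cells (SD, n = 8 hosts), higher in 8 of 8 hosts. Flipping signs over hosts gave an exact two-sided p = 0.00781, the lowest value possible here. Unthinned, the shares were 95.5% and 87.9%. *Bcl6* had a count in 90.3% ± 5.30 of cycling and 83.3% ± 3.60 of G1 cells, and 7 of 8 hosts had the higher share in cycling cells (exact p = 0.0156). Unthinned, the shares were 90.15% and 82.2%. The *Bcl6* level went the other way, so no order is read from its share. The other 8 genes differed by -4.53 to 3.11 percentage points, with exact p between 0.234 and 0.969. With at least 5 counts as the threshold, *Spib* was lower in cycling cells by -8.47 points, in 7 of 8 hosts (exact p = 0.0391), where the main difference was -4.53 points (exact p = 0.234). Unthinned, the sign was reversed: *Spib* had a count in 85.0% of cycling and 82.9% of G1 cells, higher in 6 of 8 hosts (exact p = 0.5). Its thinned share in G1 cells was 89.3%. These p-values are unadjusted, over 10 genes compared. The median total was 869386 counts in cycling cells and 687083 in G1 cells, and the median number of genes with a count, before thinning, was 4291 and 3486. Shares over all genes are not given here. Whether the *Pou2af1* and *Bcl6* differences exceed those of other genes was not tested. With thinned counts, which leave 216 G1 and 357 cycling cells, the level comparison called 5 members, all lower, *Irf8* being lost (adjusted p = 0.110).

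Other genes of the B cell program were counted from lists written from general knowledge. In this comparison 3.72% of all genes tested were called, 2.46% higher and 1.26% lower. Of the 647 genes with at least 300 CPM, 25.8% were called and 17.0% were called lower. A single call in a list is not read as a result about that list. Of 27 other B cell transcription factors tested, 3 were called, all lower in cycling cells: *Foxp1* (log2 fold change -0.99, edgeR adjusted p = 0.00185), *Ikzf3* (-0.63, adjusted p = 0.0072) and *Nfatc1* (-0.49, adjusted p = 0.0458). The median of the list was -0.22. Of 18 genes activated by PAX5 and EBF1, *Pou2af1* among them, 8 were called lower and 0 higher, with a median of -0.42. They included the adaptor *Bank1* (-1.10), the MHC class II activator *Ciita* (-0.78) and the kinase *Lyn* (-0.58). Of 16 BCL6 corepressors and partners, *Ezh2*, the H3K27 methyltransferase, was called higher (1.47, adjusted p = 0.00108). Of 15 tested genes listed as repressed by BCL6, *Cxcr5*, the chemokine receptor for entry to the follicle, was called lower (-0.94). Whether BCL6 represses *Cxcr5* in these cells was not tested. Of 10 tested FOXO1 target genes, *Bach2*, itself a member, was called lower, and of 7 plasma cell genes none. The summed level of the 8 B cell markers lay between 7862 and 10840.0 CPM in G1 cells and between 6244 and 8051 CPM in cycling cells over hosts. Of 7 B cell markers tested, 6 were called lower in cycling cells and 0 higher. All 7 were below 0, with a median log2 fold change of -0.41, where the median of the members was -0.35. In the same comparison the LZ markers *Cd83* (-0.85) and *Cd86* (-0.78) were lower and *Gcsam* (0.75), listed for both GC and dark zone cells, and the dark zone marker *Polh* (2.74) higher, and the part of a mixture of LZ and dark zone cells in the members' differences was not tested.

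Cells with an *Irf4* count were then compared with cells without. There were 63 such cells (9.89%), with a median of 147 *Irf4* counts, and 54 of them had at least 10. Of the 63 cells, 12 also had a count of *Prdm1*, which was found in 40 cells. *Irf4*-positive cells made up 8.87% of G1, 8.71% of S and 13.5% of G2/M cells. Only hosts A11 (13 cells), A12 (13), V7 (5) and V9 (19) had at least 5, so the comparison rests on these 4 hosts. *Bcl6*, *Bach2*, *Foxo1* and *Spib* were lower in *Irf4*-positive cells in 4 of 4 hosts, and none of the 10 genes passed after adjustment. The share of all genes lower in 4 of 4 hosts, or without overlap between the states, is not given here. Of all genes tested, 70.9% had a log2 fold change below 0.

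*Bcl6* was at 141 CPM in *Irf4*-positive and 341 CPM in *Irf4*-negative cells of host A11, 206 and 403 CPM in host A12, 168 and 447 CPM in host V7, and 224 and 305 CPM in host V9. The groups did not overlap. The log2 fold change was -1.01 ± 0.26 (SE; edgeR p = 0.00784, adjusted p = 0.527). *Bach2* was at 1371 and 2387 CPM in host A11, 2256 and 2795 CPM in host A12, 1065 and 3855 CPM in host V7, and 1582 and 3242 CPM in host V9, again without overlap (-0.98 ± 0.27, p = 0.0115 in edgeR, adjusted p = 0.527). *Foxo1* was at 385 and 536 CPM in host A11, 459 and 733 CPM in host A12, 505 and 699 CPM in host V7, and 381 and 666 CPM in host V9. Its log2 fold change was -0.59 ± 0.14 (edgeR p = 0.00448, adjusted p = 0.527). *Bcl6* and *Foxo1* were lower in 7 of 7 plates with enough cells, and *Bach2* and *Spib* in 6 of 7. These plates belong to the same hosts and are not further replicates.

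*Spib* was at 351 and 653.5 CPM in host A11, 563 and 609 CPM in host A12, 262 and 784 CPM in host V7, and 492.8 and 659.8 CPM in host V9 (-0.73 ± 0.30, edgeR p = 0.0478, adjusted p = 0.6499). *Mef2b* (-0.48 ± 0.22) and *Pax5* (-0.47 ± 0.26) were lower in 3 of 4 hosts. *Ebf1* (-0.05 ± 0.24), *Irf8* (0.06 ± 0.16), *Mef2c* (0.14 ± 0.24) and *Pou2af1* (0.16 ± 0.20) showed differences smaller than their SE, and their hosts went both ways. *Ebf1*, for example, was at 3224 against 2046 CPM in host A12 and at 1531 against 2047 CPM in host A11 (the plot of levels by *Irf4*). Of the 10 genes, 4 had an unadjusted p under 0.05, against 7.63% of all 13731 genes tested. With at least 10 *Irf4* counts as the cut, 3 of the 10 did, against 1156 of 13543 genes tested. With DESeq2, 3 of the 10 did, against 3150 of 13731. The rate among genes with at least 300 CPM is not given here. After adjustment edgeR called 0.00% of all genes, 0 of 13731, and DESeq2 called 10.5%, none of them a member. In simulated counts with the dispersion of these data, the fit on 4 hosts called none of 200 genes given a large change. The count of 0 therefore does not show that levels were equal.

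The median log2 fold change over all genes tested was -0.63 in this comparison. Over the 647 genes with at least 300 CPM it was -0.12, and over the members -0.48. Of all genes tested 70.9% were below 0, of the 647 genes 63.2%, and of the 10 members 7. The counts below 0 in the lists that follow stand beside these shares and were not tested. Of 8 tested plasma cell genes, 1 was below 0 and the median was 1.23, which includes *Irf4*, the gene that makes the split. Of 15 tested genes listed as repressed by BCL6, 4 were below 0, with a median of 0.39, in a list that also holds *Irf4*. Of 11 FOXO1 target genes 10 were below 0, with a median of -0.98, *Bach2* being 1 of them. The medians were -0.39 for 28 other B cell transcription factors, -0.40 for 16 corepressors and partners and -0.32 for 18 genes activated by PAX5 and EBF1. None of these genes was called. The summed level of 6 GC B cell markers was 799 to 1203 CPM in *Irf4*-positive and 1898 to 2440.0 CPM in *Irf4*-negative cells over hosts, and that of 5 plasma cell markers was 961.5 to 2544 and 1229 to 1318 CPM. The 6 LZ markers summed to 2389 to 4193 CPM in *Irf4*-positive and 1948 to 2268 CPM in *Irf4*-negative cells, without overlap, and 6 of 6 had a log2 fold change above 0 (median 0.76). The 8 macrophage and monocyte markers summed to 38.1 to 151 CPM and 19.7 to 32.85 CPM, also without overlap. The 8 T cell markers summed to 136 to 401 CPM and 322 to 366 CPM. The part of these differences in the members' levels was not tested.

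**Figure D4:**
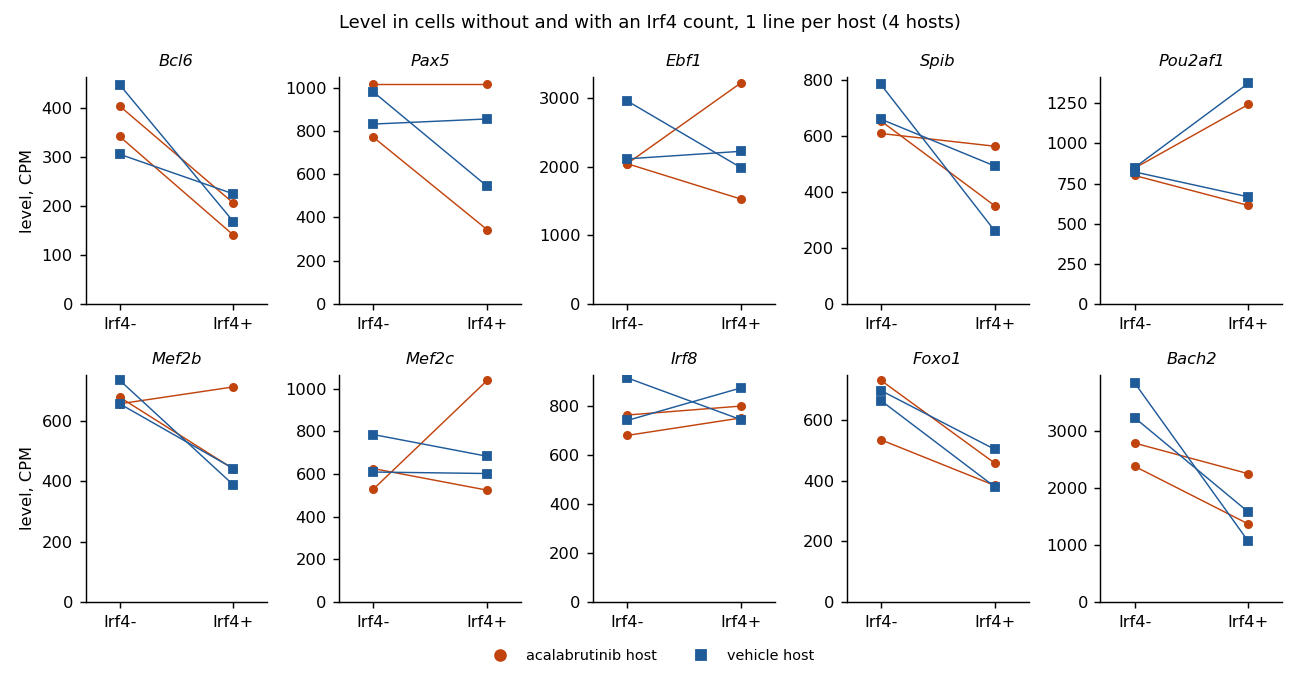
Level in CPM (axes from 0) in cells without (Irf4-) and with (Irf4+) an *Irf4* count, 1 line for each of the 4 hosts with at least 5 positive cells. *Bcl6* is lower in positive cells in all 4 hosts, at 141 to 224 CPM against 305 to 447 CPM, and *Bach2*, *Foxo1* and *Spib* are lower in all 4 as well.

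The share of cells with a *Bcl6* or *Bach2* count was lower among *Irf4*-positive cells in each of the 4 hosts. After thinning, with 56 cells still *Irf4*-positive, *Bcl6* had a count in 60.3% ± 14.7 of positive and 87.8% ± 0.982 of negative cells (SD, n = 4 hosts), and *Bach2* in 80.7% ± 2.85 and 96.0% ± 2.92. Both were lower in 4 of 4 hosts (exact two-sided p = 0.125 for each by sign flips, as low as 4 hosts can give). Unthinned, the shares were 57.2% and 89.1% for *Bcl6* and 84.7% and 96.8% for *Bach2*. *Foxo1*, whose level was lower in 4 of 4 hosts, had a count in 70.0% ± 10.2 and 74.3% ± 7.22 of cells, lower in 3 of 4. *Spib* differed by -13.7 percentage points (lower in 3 of 4 hosts), *Mef2b* by -9.90 (3 of 4), *Ebf1* by -6.67 (2 of 4) and *Pax5* by -5.82 (2 of 4), and *Pou2af1*, *Mef2c* and *Irf8* by -0.326 to 2.24. With at least 5 counts as the threshold, *Spib*, *Mef2b* and *Pax5* were lower in 4 of 4 hosts, by -13.9, -11.0 and -13.0 points (exact p = 0.125 each). *Irf4*-positive cells had a median total of 877085 counts against 780817. Shares over all genes are not given for this split either.

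Acalabrutinib and vehicle hosts were compared to ask whether BTK inhibition moves these regulators when both genotypes of a host are pooled. No member was called. The pool holds BTKC481S cells, which are insensitive to acalabrutinib, beside BTKWT cells. The absence of calls therefore does not show that levels in BTKWT cells were equal, which was not tested. *Bcl6* was at 508, 413, 356.5, 318 and 371 CPM in hosts A7, A8, A10, A11 and A12 and at 371, 418 and 293 CPM in hosts V5, V7 and V9. *Ebf1* was at 2389, 2955, 2718, 1986 and 2240.0 CPM and at 2542, 2861 and 2133 CPM in the same order. The levels of the groups overlapped for every member. Log2 fold changes lay between -0.14 ± 0.16 for *Irf8* and 0.14 ± 0.22 for *Foxo1* (edgeR p = 0.411 and 0.548, adjusted p = 1 for all 10 genes). No member had an unadjusted p under 0.05, against 3.42% of all 18016 genes tested. After adjustment, edgeR called 0 of 18016 genes (0.00%), and DESeq2 called 0.583% of them and no member.

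Shares of cells with a count were compared in the same way. After thinning, differences ran from -5.01 percentage points for *Mef2c* (91.2% ± 6.36 in 5 acalabrutinib and 96.2% ± 2.28 in 3 vehicle hosts) to 3.98 for *Mef2b* (93.7% ± 5.03 and 89.8% ± 3.21). Exact two-sided permutation tests over the 56 splits of hosts gave p between 0.232 and 0.786, and the smallest p this design allows is 0.0179. For *Bcl6* the thinned shares were 88.0% ± 3.50 and 86.1% ± 3.56 (exact p = 0.536), and the groups overlapped. Thinning left out cells unevenly: 49 of 71 remained in host V5 and 29 of 45 in host A7, but 113 of 114 in host A11. In host V5 the *Bcl6* share rose from 84.5% to 89.8%. Unthinned, the *Bcl6* shares were 88.6% ± 2.79 and 83.9% ± 1.86, 4.71 points apart, without overlap between the groups (exact permutation p = 0.0536). The other 9 members had an unthinned exact p of at least 0.161. With at least 5 counts after thinning, *Spib* had shares of 80.3% and 86.0% (exact permutation p = 0.0536). Shares over all genes are not given for treatments either. The difference between cycling and G1 cells was also compared between treatments. For *Mef2b* it was -0.25 ± 0.30 on the log2 scale in acalabrutinib hosts (SD, n = 5) and 0.17 ± 0.16 in vehicle hosts (n = 3; exact permutation test, p = 0.0714), and the other 9 members had exact p of at least 0.214. Of the lists, no gene was called, and medians lay between -0.10 for the BCL6 corepressors and 0.16 for the FOXO1 target genes.

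Across cells, the members were weakly correlated. Spearman's rho of log2(CPM + 1), centred on the host mean, was computed over 637 cells for 45 pairs, as a description. The cells came from 15 plates, and centring on the host mean leaves differences between plates of a host in place. Both genes of a pair share the cell's total. The median rho was 0.04, with a range of -0.09 (*Ebf1* and *Pou2af1*) to 0.31 (*Ebf1* and *Bach2*). *Bach2* took part in the 3 highest pairs, with *Ebf1* (0.31), *Pax5* (0.29) and *Bcl6* (0.19). *Pax5* and *Ebf1* (0.18) and *Bcl6* and *Mef2b* (0.17) followed. *Ebf1*, *Bach2* and *Pax5* have the longest gene spans of the members (391, 347 and 186 kb), and reads over introns were counted. *Bcl6* spans 23.8 kb, and *Mef2c*, at 163 kb, had a rho of 0.04 with *Bach2*. The part of gene span in these correlations was not tested. The *Ebf1* and *Bach2* correlation lay between 0.24 and 0.43 in the 8 hosts, and was 0.28 within G1 cells and 0.28 within cycling cells. The *Pax5* and *Bach2* correlation lay between -0.03 and 0.39. In all, 12 pairs were above 0.1 and none below -0.1, and 8 pairs were above 0 in each of 8 hosts. *Pou2af1* had no pair above 0.04. Correlation of a member with the cell's total count lay between -0.15 (*Pax5*) and 0.11 (*Pou2af1*).

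Joint detection cannot lie far from the product of the separate shares when these are this high, so independence is not read from it. *Bcl6* and *Bach2* were both found in 84.6% of cells, where the product of their shares is 83.2%, and *Spib* and *Irf8* in 76.6% against 74.9%. *Bcl6* and *Spib* were both missing in 27 cells, *Spib* and *Irf8* in 22, and *Bcl6* and *Pax5* in 17. The numbers that separate shares would give are not stated here, and joint absence was not tested. *Spib* and *Ebf1* had a rho of 0.22 in G1 and -0.02 in cycling cells, and *Bcl6* and *Foxo1* -0.10 and 0.14. These differences were not tested.

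**Figure D5:**
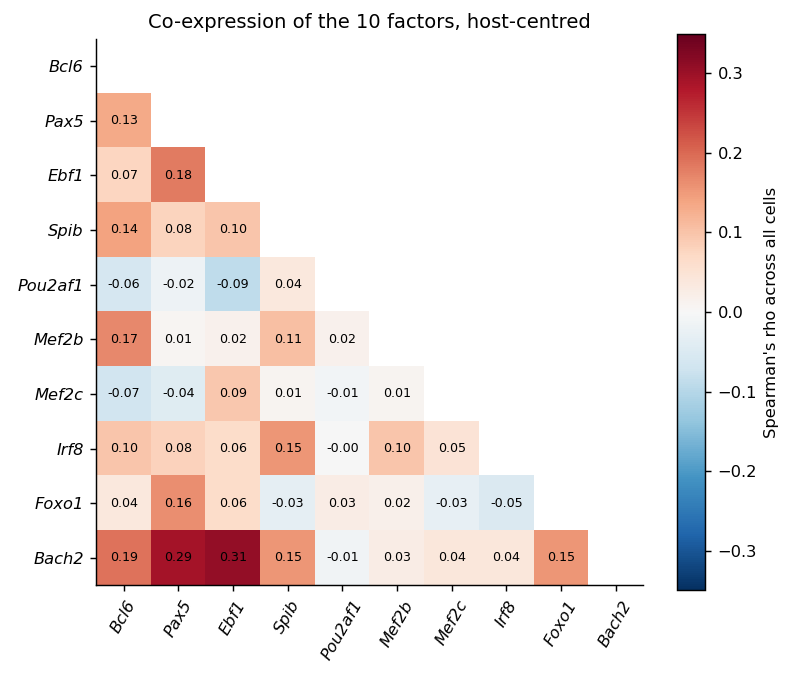
Spearman's rho between the 10 genes over 637 cells, for log2(CPM + 1) centred on the host mean, with the value printed in each of the 45 cells. The highest values are those of *Bach2* with *Ebf1* (0.31) and *Pax5* (0.29), the members with the longest gene spans. The row and column of *Pou2af1* lie between -0.09 and 0.04.

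The genes most like each member were sought among 5701 genes with a count in at least 25% of cells, by the same rho. For *Bach2* they were *Pitpnc1* (0.39), *Lpp* (0.37) and *Sox5* (0.34), whose gene spans are 263, 599 and 954 kb, where the median span of the genes searched is 38.2 kb. *Lpp* was also second for *Bcl6* (0.21), after *S1pr2* (0.23), the receptor that confines GC B cells to the GC, and before *Arpc5l* (0.20). *Ebf1* was nearest to *Bach2* (0.31), the TLR-like receptor gene *Cd180* (0.27) and the LZ marker *Cd83* (0.27), and *Cd83* was also nearest to *Irf8* (0.25), before *Cnn2* (0.21) and *Ifi30* (0.20). *Pax5* was nearest to *Bach2* (0.29), 1700128A07Rik (0.27) and *Smarca1* (0.22), and the last pair had a count in all and in 99.8% of cells.

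*Spib* was nearest to the phosphatase gene *Ptpn6* (0.22), the proton channel gene *Hvcn1* (0.21) and the tetraspanin gene *Cd37* (0.21). *Pou2af1* was nearest to the proliferation marker *Mki67* (0.23) and to Gm15428 (0.22) and Gm4739 (0.21), whose gene models span 0.333 and 0.633 kb. *Foxo1* was nearest to *Serinc3* (0.20), *Chst3* (0.18) and *Pax5* (0.16). *Mef2b* was nearest to *Hmgn1* (0.20), the heavy chain segment *Ighv1-72* (0.19) and *Hdgfl2* (0.18), and *Mef2c* to *Hivep3* (0.15), *Dennd5b* (0.14) and *Swap70* (0.14). All these values are low, and no shared function is read from them. Of the 10 members, 8 overlap another gene model in GENCODE M21, among them *Mef2b*, which overlaps *Borcs8* on the same strand, and *Irf8*, which overlaps Gm20388, so reads in the shared stretches may be split or dropped.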

How the data were processed

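Single LZ GC B cells of 8 hosts were sequenced by SMART-seq2. The authors mapped reads with STARsolo 2.7.10a to GRCm39, counted reads overlapping exons or introns, collapsed reads with identical positions and deposited the counts as whole numbers without normalization. The build and tool are also in the submitters' processing notes. Without molecular identifiers, amplified copies can count more than once.

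The 10 members, the gene lists and the tests were chosen with earlier results of these data known. Phases were called with Seurat 5.3.0. Counts were summed per host and state (at least 5 cells in each) and tested in edgeR 4.0.16 (R 4.3.3) by quasi-likelihood (TMM scaling, default filter on low counts, host as block except between treatments, Benjamini-Hochberg over all genes tested). An SE is the absolute log2 fold change over the square root of F. DESeq2 1.42.0 was an alternative, and an adjusted p it gave as missing stayed missing. Shares were taken after thinning each cell to 459128 counts, the 10th percentile, which left out 32 G1 and 32 cycling cells. Each host is an animal, and the block pairs states of the same animal. Correlations used a pseudocount of 1 CPM. The steps were tested on simulated data. There the edgeR fit between *Irf4* states recovered the size of the change but called none of 200 changed genes. Python 3.11.15, NumPy 2.4.6, SciPy 1.17.1, pandas 2.3.3 and matplotlib were used. Exon lengths and spans are from GENCODE M21 on GRCm38, since no GRCm39 annotation was used here, and were matched by gene ID.

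Named genes are the 10 members, *Irf4*, *Prdm1*, the 3 genes of highest rho per member, and up to 4 genes per list and comparison with adjusted p under 0.05, by largest change. Some genes that this rule or the marker lists name are not reported here. Cell type markers and overlapping gene models were named beside these. Alternatives were DESeq2, no low-count filter, thinned counts, no host block, single phases, a median split on summed cell cycle CPM, at least 10 *Irf4* counts, and each host left out.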

Additional observations from a re-analysis of the deposited data

Results flagged for a closer look

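Among 40 sets of 4, 5 or 8 hosts examined for a value far from the others (level and thinned share over 5 acalabrutinib hosts, cycling minus G1 over 8 hosts and *Irf4* states over 4 hosts, for 10 members), 1 was found, and chance alone gives about 1 in 20. *Ebf1* had a count in 98.2% of the thinned cells of host A11 (111 of 113) and in all thinned cells of the other 4 acalabrutinib hosts. With those 4 hosts tied at 100%, any lower value in host A11 would be flagged. The rate of 1 in 20 does not apply to such a set, and nothing is read from this value.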

How the results depend on the processing

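The count of members called between cycling and G1 cells, 6, was 2 without the filter on low counts, 2 without the host block and 2 with G2/M cells alone against G1, and between 2 and 5 with 1 host left out. It was 5 with thinned counts, 4 with S cells alone, 7 with a median split and 9 with DESeq2, the last pair with 1 higher each. The fitted fold changes of *Ebf1* and *Bach2* were below 0 under each of these settings, and the *Bach2* call was lost without the block and in G2/M cells. The cause was not tested. The host block pairs the states of the same host. Against G1, *Foxo1* was at 0.0697 in G2/M cells. The count between S and G2/M, 1, was 3 with DESeq2, 0 without the filter and 0 to 1 with 1 host left out. The median rho of the 45 pairs, 0.04, was 0.0651 in G1 cells and 0.0352 to 0.0572 with 1 host left out. The counts of members between *Irf4* states and between treatments stayed at 0 under the alternatives run. The *Irf4* comparison within G1 cells was not run, since fewer than 2 hosts had 5 cells of each kind.

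Other sign changes were in values that were not called. Between *Irf4* states these were *Ebf1* with DESeq2 (0.0243), *Pou2af1* in S and G2/M cells (-0.14), *Mef2c* thinned (-0.0503) and *Irf8* without the filter (-0.033). Between treatments they were *Pax5* (-0.0344), *Pou2af1* (0.0483) and *Mef2b* (0.19) in G1 cells and *Mef2c* (-0.0017) in cycling cells. Between S and G2/M it was *Spib* with DESeq2 (-0.0004) and without the block (-0.0044). With at least 5 counts, shares of *Irf8* and *Foxo1* in cycling minus G1 cells were -0.710 and -0.470 points, and of *Irf8* between *Irf4* states 2.01 points. At this threshold *Spib* in cycling minus G1 cells was -8.47 points (exact p = 0.0391). Unthinned, cycling minus G1 was 2.14 points for *Spib* and 0.236 for *Bach2*, *Irf8* between *Irf4* states was 2.37 and *Ebf1* between treatments -0.798. Unthinned, 4 members had an exact p under 0.05 between cycling and G1 cells, against 2 thinned, with no rate over all genes beside these counts. The number of shares with an exact p under 0.05 between treatments was 0, and 0 to 1 with 1 host left out (*Spib* without host A7, *Ebf1* without host V9).

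With 1 host left out, signs changed in these ranges. Share differences in points, cycling minus G1, ran from -1.002 to 2.19 for *Irf8* and -2.25 to 2.02 for *Foxo1*. Between *Irf4* states they ran from -0.341 to 5.41 for *Pou2af1*, -2.34 to 4.54 for *Mef2c*, -4.69 to 5.37 for *Irf8* and -10.05 to 0.0671 for *Foxo1*, and between treatments from -3.47 to 0.258 for *Irf8*. Log2 fold changes between *Irf4* states ran from -0.325 to 0.186 for *Ebf1*, -0.0099 to 0.299 for *Pou2af1*, -0.175 to 0.2501 for *Mef2c* and -0.0414 to 0.232 for *Irf8*. Between treatments they ran from -0.0807 to 0.235 for *Bcl6*, -0.0481 to 0.204 for *Pax5*, -0.220 to 0.0609 for *Ebf1*, -0.205 to 0.0148 for *Mef2b*, -0.109 to 0.0779 for *Mef2c*, -0.0376 to 0.256 for *Foxo1* and -0.113 to 0.182 for *Bach2*. Between S and G2/M they ran from -0.0505 to 0.0514 for *Spib* and -0.160 to 0.0039 for *Mef2c*.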
